A study of Rattus norvegicus with 40 samples.

Results

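The 10 genes described here are 9 tubulin isotypes (Tubb5, Tubb6, Tubb2a, Tubb2b, Tubb3, Tubb4b, Tuba1a, Tuba1b and Tuba1c) and Stmn1, which encodes stathmin, out of 17337 genes in the count files. They were picked by symbol with their levels in these samples already known, and Tubb6 was noted for a rise with diethylnitrosamine (DEN) that far exceeded that of Tubb5. Their levels in all 8 groups of week, treatment and tissue were part of that choice, so the values of the members are given as a description, without p-values, and counts of members called by a test are set beside the share or number of all genes called. Male Fischer 344 rats were given weekly intraperitoneal injections of DEN, a hepatocarcinogen activated in the liver, at 50 mg/kg from 7 weeks of age. Livers were taken after 8 weeks of DEN, after 14 weeks of DEN, or at 20 weeks, after 14 weeks of DEN and 6 weeks without it. Control rats of the same ages received no DEN (No DEN). Each of these 6 groups held 4 rats. Non-tumoral (NT) liver was sequenced from every rat, and 2 tumor nodules from each DEN-treated rat at 14 and 20 weeks, which made 40 libraries from 24 rats. The 2 nodules of a rat were summed, so that n is 4 rats in each of the 8 groups of week, treatment and tissue. The rat numbers of the DEN groups start with F or H and those of the No DEN groups all start with H; the labels do not say what the letter means.

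Microtubules are polymers of alpha- and beta-tubulin dimers that form the mitotic spindle, the axoneme of cilia and the tracks along which hepatocytes carry vesicles for secretion. Several genes encode each subunit, and the isotypes differ mainly at the C-terminal tail, where enzymes modify tubulin and where many microtubule-associated proteins bind. Stathmin binds free tubulin dimers and promotes microtubule shrinkage, and it is switched off by phosphorylation when cells enter mitosis. Tubulin messenger RNA is also degraded when free dimers accumulate, so that isotype genes are partly regulated through RNA stability.

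All 10 genes had an entry in the RefSeq promoter table of the GRCr8 build, which gives 250 bases before and 50 bases after each start; the read counts themselves were made on rn6. The windows of 4 genes are shown because the results turn on them: Tubb6 with the widest difference, Tubb5 as its more even counterpart, Tubb2a with a difference of the opposite sign, and Stmn1. They lie at chr18:63213037-63213336 (+), chr20:2917327-2917626 (+), chr17:31001936-31002235 (+) and chr5:151964929-151965228 (+). Capitals mark matches, on either strand, to CCAAT, to the cell cycle element TTTGAA, to the E2F letters TTTGGCGC, TTTCCCGC, TTTCGCGC and TTTGCCGC, and to TATAAA or TATATAA.
Tubb6: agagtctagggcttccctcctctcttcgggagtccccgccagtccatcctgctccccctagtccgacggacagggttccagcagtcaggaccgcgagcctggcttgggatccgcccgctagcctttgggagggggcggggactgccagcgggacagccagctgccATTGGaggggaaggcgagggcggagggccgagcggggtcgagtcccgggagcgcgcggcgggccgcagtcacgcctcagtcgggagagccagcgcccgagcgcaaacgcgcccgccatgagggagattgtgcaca
Tubb5: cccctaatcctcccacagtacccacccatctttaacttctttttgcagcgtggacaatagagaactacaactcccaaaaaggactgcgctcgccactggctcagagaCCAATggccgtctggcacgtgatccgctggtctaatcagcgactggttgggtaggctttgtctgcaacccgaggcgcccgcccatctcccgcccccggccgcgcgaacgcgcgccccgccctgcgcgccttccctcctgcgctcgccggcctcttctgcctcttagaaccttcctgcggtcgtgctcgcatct
Tubb2a: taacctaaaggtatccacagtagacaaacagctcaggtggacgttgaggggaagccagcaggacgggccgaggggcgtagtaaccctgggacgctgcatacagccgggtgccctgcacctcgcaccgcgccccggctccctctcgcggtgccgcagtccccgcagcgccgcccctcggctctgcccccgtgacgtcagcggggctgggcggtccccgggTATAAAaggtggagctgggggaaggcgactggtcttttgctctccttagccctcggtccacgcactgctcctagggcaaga
Stmn1: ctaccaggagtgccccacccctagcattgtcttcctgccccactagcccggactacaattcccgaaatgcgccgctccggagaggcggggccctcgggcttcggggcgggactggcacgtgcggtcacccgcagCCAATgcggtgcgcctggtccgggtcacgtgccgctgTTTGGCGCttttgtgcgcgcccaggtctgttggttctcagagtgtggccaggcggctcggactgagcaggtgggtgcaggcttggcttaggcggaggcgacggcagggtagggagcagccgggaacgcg

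CCAAT or its complement was found in 9 of the 10 windows, against 37.5% of the 33469 promoters in the table, and Tubb2a was the member without it. GGGCGG, not capitalized above, was also found in 9 of 10, against 33.1% of all promoters, and was missing from the Tubb2b window. The letters TATAAA or TATATAA occurred in Tubb2a, Tubb4b, Tuba1a and Tuba1c, 4 of 10 against 16.1%. TTTGAA occurred in Tubb4b and Tuba1c, 2 of 10 against 18.3%. The E2F letters were found in Stmn1, 1 of 10 against 2.14%. The GC content of the windows ran from 53% in Tubb4b to 75.7% in Tuba1b, and promoters of high GC content hold GGGCGG more often by composition. These matches are letters in a window and carry no statement on binding.

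The libraries held between 20528515 and 160622633 read pairs assigned to genes, with a median of 30477400, and the deepest was the NT liver of rat H26 at 20 weeks. Values below are counts per 1000000 assigned read pairs (CPM) after scaling by the trimmed mean of M values (TMM). Between 7.96% and 16.3% of read pairs per library mapped to several places and were left out by the authors, so that closely similar tubulin copies are undercounted to an unknown extent. CPM are not corrected for transcript length, and levels are compared between groups and not between genes. How many of all genes had groups without overlap was not counted, so statements on overlap describe each gene alone. Of 7 hepatocyte markers, all were detected in every group, and their summed level ran from 274947 to 324834 CPM in No DEN liver, from 188658 to 297654 in DEN NT liver and from 130986 to 249885 in nodules. In bulk tissue, fewer cells of a type and less RNA per cell cannot be told apart.

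Tubb6, the class V beta-tubulin, differed most from No DEN liver among the members. In No DEN liver it stood at 1.68, 2.18, 2.02 and 4.56 CPM at 8 weeks, at 2.06, 2.12, 2.89 and 2.52 at 14 weeks, and at 4.97, 1.66, 3.85 and 2.56 at 20 weeks. In NT liver of DEN rats the values were 24.7, 18.5, 24.5 and 28.8 CPM at 8 weeks, 24.3, 76.9, 92.2 and 63.1 at 14 weeks, and 14.1, 11.7, 29.0 and 40.3 at 20 weeks. All 12 of these rats lay above every No DEN rat, and at 14 weeks the lowest value, 24.3 CPM, belonged to rat F06. The summed nodules held 44.4, 95.1, 131 and 109.7 CPM at 14 weeks and 62.6, 44.0, 98.3 and 163 at 20 weeks. The fitted log2 fold changes against No DEN liver of the same week were 3.20 (SE 0.28), 4.77 (SE 0.46) and 2.88 (SE 0.52) in NT liver at 8, 14 and 20 weeks, which are 9.17-, 27.3- and 7.35-fold. In nodules they were 5.28 (SE 0.34) at 14 weeks and 4.78 (SE 0.46) at 20 weeks, or 38.9- and 27.4-fold.

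Tubb5, the widely expressed class I beta-tubulin, was also higher in every DEN group, but by less. No DEN liver held 76.1 ± 3.18 CPM at 8 weeks (SD, n = 4), 77.7 ± 3.11 at 14 weeks, and 81.6 ± 9.21 at 20 weeks. NT liver held 133, 128, 120.1 and 144 CPM at 8 weeks, 127, 267, 288 and 202 at 14 weeks, and 127, 96.9, 141 and 178 at 20 weeks. Nodules held 160, 296, 381 and 291 CPM at 14 weeks and 227, 167, 317 and 375 at 20 weeks. In all 5 comparisons every DEN value lay above every No DEN value of the same week. The log2 fold changes were 0.78 (SE 0.08), 1.54 (SE 0.23) and 0.75 (SE 0.17) in NT liver and 1.84 (SE 0.22) and 1.70 (SE 0.22) in nodules, a narrower range than that of Tubb6.

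**Figure D1:**
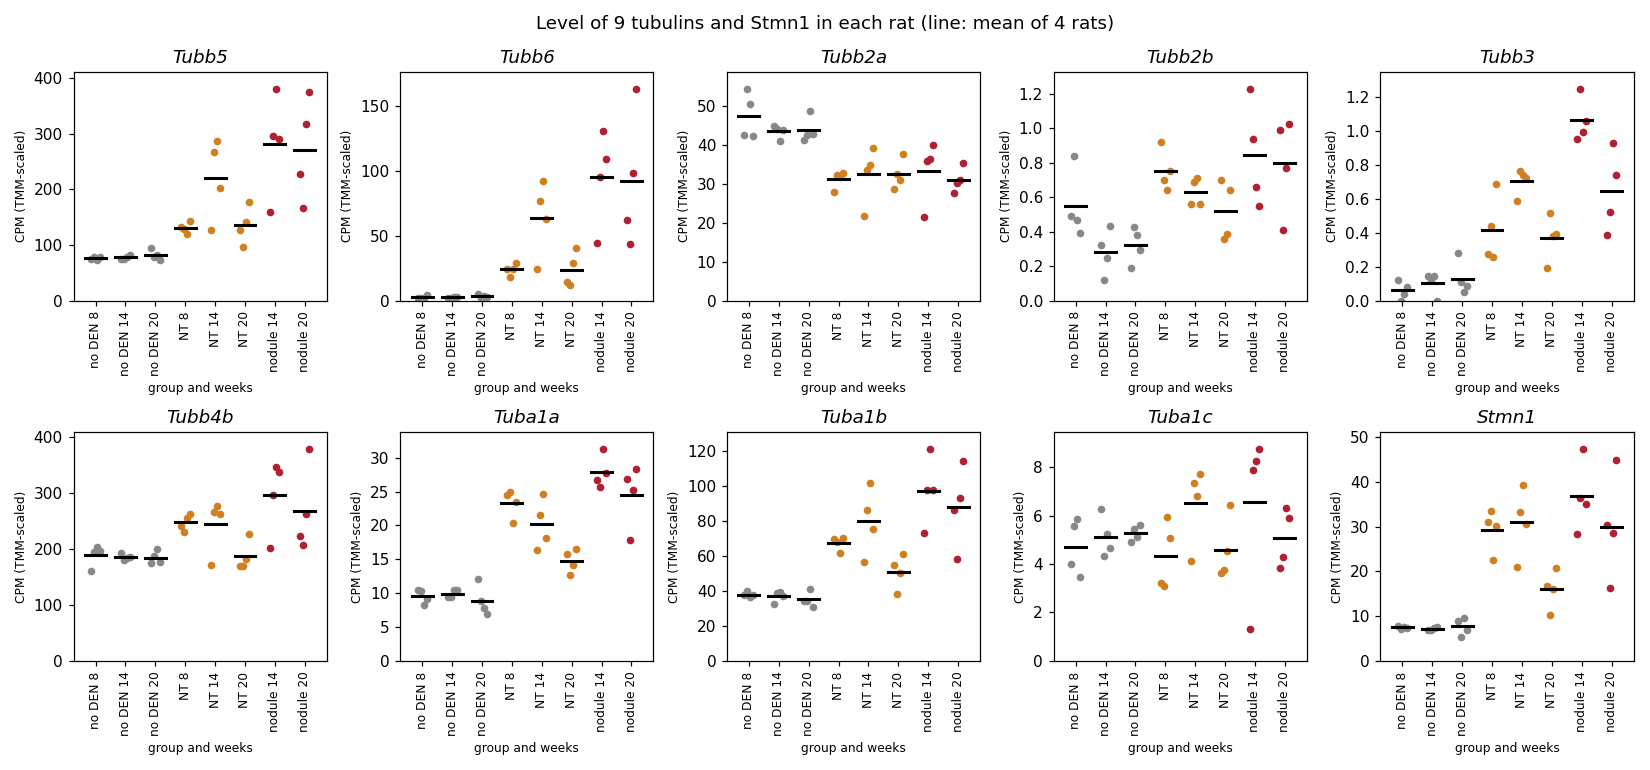
TMM-scaled CPM of each member (y axis, from 0) in the 4 rats of each group (x axis: group and weeks); points are rats, nodules are summed per rat, and lines are means of 4 rats. Tubb6 lies between 1.66 and 4.97 CPM in No DEN liver and between 11.7 and 163 CPM in the DEN groups, whereas Tubb2a is lower in the DEN groups than in No DEN liver.

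The ratio of Tubb6 to Tubb5 within each library does not depend on scaling between libraries. It restates, from the same counts, the difference for which Tubb6 was noted. For every 100 Tubb5 read pairs there were 3.40 ± 1.61 Tubb6 pairs in No DEN liver at 8 weeks (SD, n = 4), 3.08 ± 0.41 at 14 weeks and 3.91 ± 1.40 at 20 weeks. In NT liver of DEN rats there were 18.3 ± 2.72 at 8 weeks, 27.8 ± 5.96 at 14 weeks and 16.6 ± 5.84 at 20 weeks. Nodules held 33.0 ± 4.14 at 14 weeks and 32.1 ± 7.92 at 20 weeks. The highest No DEN library reached 5.77 and the lowest DEN library 11.1, so that no library of one kind overlapped the other. The NT liver and nodules of a rat are not separate animals. Since neither gene was corrected for length, only the change of this ratio between groups can be read.

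**Figure D2:**
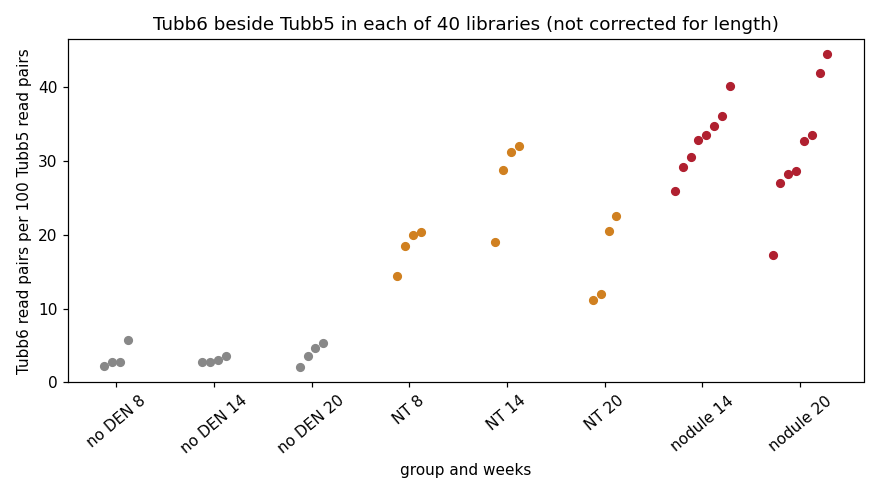
Tubb6 read pairs per 100 Tubb5 read pairs (y axis, from 0) in each of the 40 libraries by group and weeks (x axis); points are libraries, with each nodule drawn on its own. No DEN libraries lie between 2.12 and 5.77 and DEN libraries between 11.1 and 44.5.

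Tubb2a, a class II beta-tubulin, was lower after DEN. It stood at 42.6, 54.5, 50.6 and 42.4 CPM in No DEN liver at 8 weeks, at 45, 44.1, 40.9 and 43.9 at 14 weeks, and at 41.3, 42.6, 48.8 and 42.9 at 20 weeks. NT liver of DEN rats held 27.9, 32.4, 31.9 and 32.7 CPM at 8 weeks, 21.9, 33.6, 35.0 and 39.4 at 14 weeks, and 28.7, 32.7, 31.0 and 37.7 at 20 weeks. Nodules held 33.4 ± 8.20 CPM at 14 weeks and 31.1 ± 3.16 at 20 weeks. Every DEN value lay below every No DEN value of its week, and the log2 fold changes were -0.61 (SE 0.10), -0.39 (SE 0.15) and -0.42 (SE 0.10) in NT liver and -0.40 (SE 0.17) and -0.53 (SE 0.09) in nodules. Its neuronal relative Tubb2b had few read pairs, from 3 to 80 per rat and tissue, and was higher on average after DEN. Tubb2b averaged 0.55, 0.28 and 0.32 CPM in No DEN liver, 0.75, 0.63 and 0.52 in NT liver of DEN rats, and 0.84 and 0.80 in nodules. The groups overlapped at 8 and 20 weeks in NT liver and at 20 weeks in nodules. At 14 and 20 weeks Tubb2b held 3 to 13 read pairs per No DEN library and passed the filter on low counts through the DEN libraries.

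Tubb4b, the broadly expressed class IVb beta-tubulin that also builds cilia, was higher on average after DEN, by less than Tubb5, and hardly differed in NT liver at 20 weeks. No DEN liver averaged 189, 186 and 185 CPM at 8, 14 and 20 weeks, and NT liver of DEN rats 248, 244 and 187 CPM. Nodules averaged 296 CPM at 14 weeks and 268 CPM at 20 weeks, with log2 fold changes of 0.65 (SE 0.15) and 0.51 (SE 0.17). The groups were apart in both nodule comparisons and in NT liver at 8 weeks. In NT liver the log2 fold change was 0.39 (SE 0.09) at 8 weeks, 0.43 (SE 0.13) at 14 weeks and 0.03 (SE 0.11) at 20 weeks, when the groups overlapped. At 14 weeks the groups overlapped too: the 3 rats numbered H held 266, 277 and 263 CPM, and rat F06 held 172 CPM, below the 181 to 192 CPM of the No DEN rats of that week.

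Tubb3, the class III beta-tubulin best known from neurons, was close to the limit of detection. No DEN liver held 0 to 3 read pairs per library at 8 weeks, 0 to 4 at 14 weeks and 1 to 6 at 20 weeks, and NT liver of DEN rats held 8 to 20, 20 to 30 and 6 to 64. At 8 weeks Tubb3 did not pass the filter on low counts. Against a floor of 3 read pairs per No DEN library, the mean of 0.414 CPM in NT liver at 8 weeks was at least 3.43-fold higher. At 14 weeks it passed the filter through the DEN libraries, with log2 fold changes of 2.82 (SE 0.45) in NT liver and 3.37 (SE 0.47) in nodules, and in nodules at 20 weeks the value was 2.26 (SE 0.51). These 3 values rest on at most 6 read pairs in any No DEN library and depend on the count that the fit adds to 0.

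Among the alpha-tubulins, Tuba1a and Tuba1b were higher after DEN and Tuba1c was not clearly so. Tuba1a, which is abundant in the developing brain, averaged 9.51, 9.92 and 8.90 CPM in No DEN liver, 23.4, 20.2 and 14.8 CPM in NT liver of DEN rats, and 27.8 and 24.5 CPM in nodules. Among the NT livers it was thus highest at 8 weeks, whereas Tubb5 and Tubb6 were highest at 14 weeks. Its log2 fold changes were 1.29 (SE 0.10), 1.06 (SE 0.12) and 0.74 (SE 0.16) in NT liver and 1.47 (SE 0.09) and 1.43 (SE 0.19) in nodules. For every 100 read pairs of Tuba1b, Tuba1a gave 25 ± 2.25 in No DEN liver at 8 weeks and 34.6 ± 1.58 in NT liver of DEN rats (SD, n = 4 each), without overlap. At 14 weeks both stood close, at 27.0 ± 2.12 and 25.6 ± 2.28. Tuba1b, the ubiquitous alpha-tubulin, averaged 37.9, 36.9 and 35.1 CPM in No DEN liver, 67.5, 80.0 and 51.0 in NT liver of DEN rats, and 97.5 and 88.0 in nodules. The groups were apart in every comparison of Tuba1a, and in every comparison of Tuba1b but that of NT liver at 20 weeks.

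Tuba1c, another widely expressed alpha-tubulin, overlapped between DEN and No DEN rats in all 5 comparisons, with log2 fold changes from -0.19 (SE 0.19) to 0.38 (SE 0.19). The spread within the DEN groups was wide, and at 14 weeks the overlap came from rat F06 alone. Rat F06 held 4.14 CPM in NT liver and 1.30 CPM in its summed nodules, against 6.80 to 7.74 and 7.90 to 8.76 CPM in the other 3 rats at 14 weeks, which lay above the highest No DEN rat of that week, 6.28 CPM. Without rat F06 the log2 fold change of Tuba1c at 14 weeks was 0.53 (SE 0.13) in NT liver, beside 0.38 with it, and 0.70 (SE 0.12) in nodules, beside 0.33. At 8 weeks rats F09 and F10 held 3.23 and 3.09 CPM, and rats H17 and H18 held 5.94 and 5.07. In each of these 3 groups, and in both 20-week groups with rat F03, the rats whose number starts with F were the lowest, a pattern noticed after the values were seen.

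Stmn1 was among the members with the widest differences. It held 7.73, 7.13, 7.64 and 7.35 CPM in No DEN liver at 8 weeks, 6.85, 6.89, 7.23 and 7.53 at 14 weeks, and 9.01, 5.40, 9.60 and 6.84 at 20 weeks. NT liver of DEN rats held 31.1, 33.5, 22.7 and 30.2 CPM at 8 weeks, 21, 33.3, 39.4 and 30.7 at 14 weeks, and 16.8, 10.3, 16 and 20.8 at 20 weeks. Nodules held 28.3, 36.4, 47.4 and 35.0 CPM at 14 weeks and 30.4, 16.3, 28.6 and 44.9 at 20 weeks. No DEN value overlapped a DEN value of the same week, and the log2 fold changes were 1.97 (SE 0.12), 2.16 (SE 0.17) and 1.06 (SE 0.24) in NT liver and 2.35 (SE 0.15) and 1.93 (SE 0.28) in nodules. Relative to the tubulin it binds, there were 9.83 ± 0.74 Stmn1 read pairs per 100 Tubb5 pairs in No DEN liver and 22.3 ± 3.11 in NT liver of DEN rats at 8 weeks (SD, n = 4 each). At 14 weeks the ratio was 9.17 ± 0.06 in No DEN liver, 14.5 ± 1.75 in NT liver and 13.6 ± 2.74 in nodules. At 20 weeks it was 9.42 ± 1.98 in No DEN liver, 11.7 ± 1.11 in NT liver and 11 ± 1.99 in nodules. The difference of the mean ratio from No DEN liver was thus widest at 8 weeks.

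Summed over the 9 tubulins, the level was 368 ± 24.2, 362 ± 4.40 and 363 ± 20.4 CPM in No DEN liver at 8, 14 and 20 weeks (SD, n = 4 each). It was 531 ± 26.8, 669.9 ± 177 and 451 ± 86.1 CPM in NT liver of DEN rats and 840.0 ± 223 and 782 ± 248 CPM in nodules. Of these sums, the 6 beta-tubulins made up 316, 309.9 and 314 CPM in No DEN liver and 708 and 665 CPM in nodules.

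**Figure D3:**
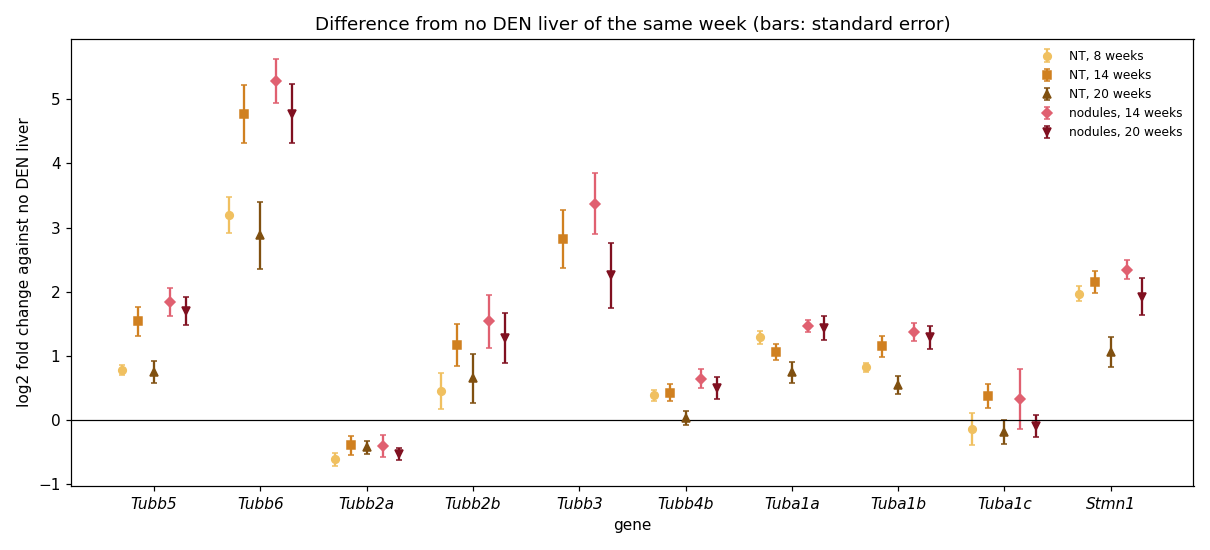
Log2 fold change of each member (x axis) against No DEN liver of the same week (y axis); points are fitted values from 4 against 4 rats and bars are standard errors. Tubb6 reaches 5.28 in nodules at 14 weeks, Tubb2a lies below 0 in all 5 comparisons, and Tubb3 is drawn only where it passed the filter on low counts.

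For context, a gene was called in NT liver where its log2 fold change reached 1 in either direction with an adjusted p no higher than 0.01, and in nodules where it reached 0.5 with an adjusted p no higher than 0.05, after the limits of the study. At 8 weeks 3 members were called, all higher, of 9 tested, beside 7.91% of all genes (7.29% higher); at 14 weeks 6 of 10, all higher, beside 15.2% (13.1% higher); and at 20 weeks 1 of 9, higher, beside 5.22% (4.89% higher). In nodules 8 of 10 were called higher at 14 weeks, beside 39.1% of all genes (23.9% higher), and 8 higher and 1 lower, Tubb2a, at 20 weeks, beside 38.8% (23.6% higher). Tubb6 was the member called in all 5 comparisons, although at 20 weeks in NT liver its call was lost without any 1 of the No DEN rats, without rat H26, or without the filter on low counts. In nodules at 14 weeks Tuba1c was called too when rat F06 was left out (9 members beside 4686 of 11294 genes). At 20 weeks the call of Tubb4b in nodules was lost without any 1 of the No DEN rats, without rat H28 or with either nodule alone, and that of Tubb2a without rat F03, without rat H15 or with nodule 2 alone. At 14 and 20 weeks Tubb2b and Tubb3, where tested, passed the filter through the DEN libraries, so that their calls carry no weight. Without these 2 genes, 3, 5 and 1 of 8 were called in NT liver, all higher, and 6 of 8 higher in nodules at 14 weeks and 6 higher and 1 lower at 20 weeks. Their median log2 fold changes were 0.80, 1.11, 0.65, 1.42 and 1.36 in the 5 comparisons, and those of all genes stayed between -0.01 and 0.02. The members were chosen on these contrasts, and nothing is read from these counts.

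Genes of proliferation and of other liver cells moved with DEN as well. The summed level of 6 proliferation genes (Mki67, Top2a, Cdk1, Ccnb1, Aurkb and Bub1) ran from 12.8 to 27.4 CPM in No DEN libraries, from 89.8 to 112 in NT liver at 8 weeks, from 73.7 to 182 at 14 weeks and from 23 to 72.2 at 20 weeks, and from 33.4 to 198 in nodules. Among the DEN-treated rats at 14 weeks, rat F06 held the lowest proliferation sums, 73.7 CPM in NT liver and 74.7 and 82.9 CPM in its nodules. It also held the lowest values of that week's DEN rats in both tissues for Tubb5, Tubb6, Tubb2a, Tubb3, Tubb4b, Tuba1b, Tuba1c and Stmn1, and in NT liver for Tubb2b and Tuba1a too. In nodules its Tubb2b value, 1.23 CPM, was the highest. Its macrophage sums were the highest of these rats, at 690.1 CPM in NT liver against 271 to 355 in the other 3, and its cholangiocyte and ductular sum in NT liver was the lowest, at 39.5 CPM against 54.7 to 91.1. Its lymphocyte sums were the highest too, at 6.35 CPM in NT liver and at 9.18 and 8.44 CPM in nodules. Its hepatocyte sum was the highest of these NT livers, 231979 CPM, whereas its first nodule held the lowest of that week's nodules, 130986 CPM. Among the DEN-treated rats at 20 weeks, rat H25 held the lowest proliferation sum in NT liver, 23 CPM, and the lowest cholangiocyte and ductular sum, 35.7 CPM, as it did for Tubb5, Tubb6, Tubb2b, Tuba1a, Tuba1b and Stmn1. It was not the lowest for Tubb2a, Tubb4b and Tuba1c, and it was the highest for Tubb3, at 0.519 CPM. The 5 cholangiocyte and ductular markers in the files summed to 16.3 to 24.2 CPM in No DEN libraries, 30.1 to 91.1 in NT liver of DEN rats and 49.2 to 216 in nodules. Endothelial markers, 5 of 6 in the files, summed to 43.4 to 101 CPM in No DEN libraries and 115 to 187 in DEN libraries. Stellate cell and myofibroblast markers, of which 7 of 8 had counts and Col1a2 was listed at 0 throughout, summed to 179.7 to 268 CPM without DEN and 256 to 570 with DEN. Lymphocyte markers summed to 2.30 to 5.05 CPM without DEN, 3.60 to 9.77 in NT liver of DEN rats and 3.21 to 9.18 in nodules, and macrophage sums overlapped between the treatments at each week. The part of these cells and of proliferation in the tubulin values was not tested.

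Nodules were next set beside NT liver of the same DEN-treated rats. At 20 weeks 9 of 10 members had a higher mean in nodules. Tubb6 was higher in nodules in 4 of 4 rats, by 3.39- to 4.43-fold within a rat, and the lowest nodule value, 44.0 CPM, lay above the highest NT value, 40.3 CPM. Tuba1a did not overlap either, at 17.8 to 28.3 against 12.7 to 16.6 CPM, and the share of all genes without overlap was not counted. Tubb5, Tuba1b and Stmn1 were each higher in 4 of 4 rats, with median ratios of 1.95, 1.71 and 1.80, but overlapped between the groups. Tubb2a was higher in nodules in 1 of 4 rats, with ratios between 0.928 and 1.01.

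Without regard to which samples came from the same rat, no member passed the threshold at 20 weeks in edgeR (quasi-likelihood, Benjamini-Hochberg adjusted), nor did any gene (0% of 11546), although 2767 genes and 6 members had an unadjusted p under 0.05 and DESeq2 called 5 members and 881 genes. For Tubb6 the log2 fold change was 1.92 (SE 0.47). With the rat as a block, 6 members were called higher by the same test (Tubb5, Tubb6, Tubb3, Tuba1a, Tuba1b and Stmn1), beside 14.7% of all genes called and 9.21% called higher, and nothing is read from this count. The blocked log2 fold changes were 1.93 for Tubb6 (SE 0.08), 0.94 for Tubb5 (SE 0.10), 0.84 for Stmn1 (SE 0.08), 0.74 for Tuba1b (SE 0.08), 0.69 for Tuba1a (SE 0.08), 0.82 for Tubb3 (SE 0.28) and 0.46 for Tubb4b (SE 0.10), the last under the limit of 0.5. Tubb2a, Tubb2b and Tuba1c were not called either. With the block, 7 members were called without rat H25, beside 2078 of 11598 genes, 5 without rat F03, beside 1488 of 11554 genes, and 5 without rat H26, beside 1070 of 11488 genes.

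At 14 weeks the nodules differed less from the surrounding liver. Tubb6 was again higher in 4 of 4 rats, by 1.24- to 1.83-fold, Tubb5 by 1.11- to 1.44-fold and Tuba1a by 1.19- to 1.64-fold. The groups were apart for Tubb3 (0.955 to 1.25 against 0.587 to 0.767 CPM) and for Tuba1a (25.6 to 31.3 against 16.3 to 24.7 CPM). No member and no gene passed the threshold (0% of 11466), with 1348 genes and 2 members, Tubb3 and Tuba1a, at an unadjusted p under 0.05, and DESeq2 called no member beside 37 genes. The log2 fold changes of the 10 members ran from -0.02 (Tuba1c) to 0.57 (Tubb3). The log2 fold change of Tubb6 was 0.54 (SE 0.42). With the rat as a block the count stayed at 0% by edgeR, with 2518 genes and 7 members at an unadjusted p under 0.05; Tubb6 then had a log2 fold change of 0.59 (SE 0.11), and it was the single member called with the block when rat F06 was left out, beside 300 of 11571 genes. Whether the nodule difference of Tubb6 itself changed from 14 to 20 weeks relative to NT liver was not tested.

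**Figure D4:**
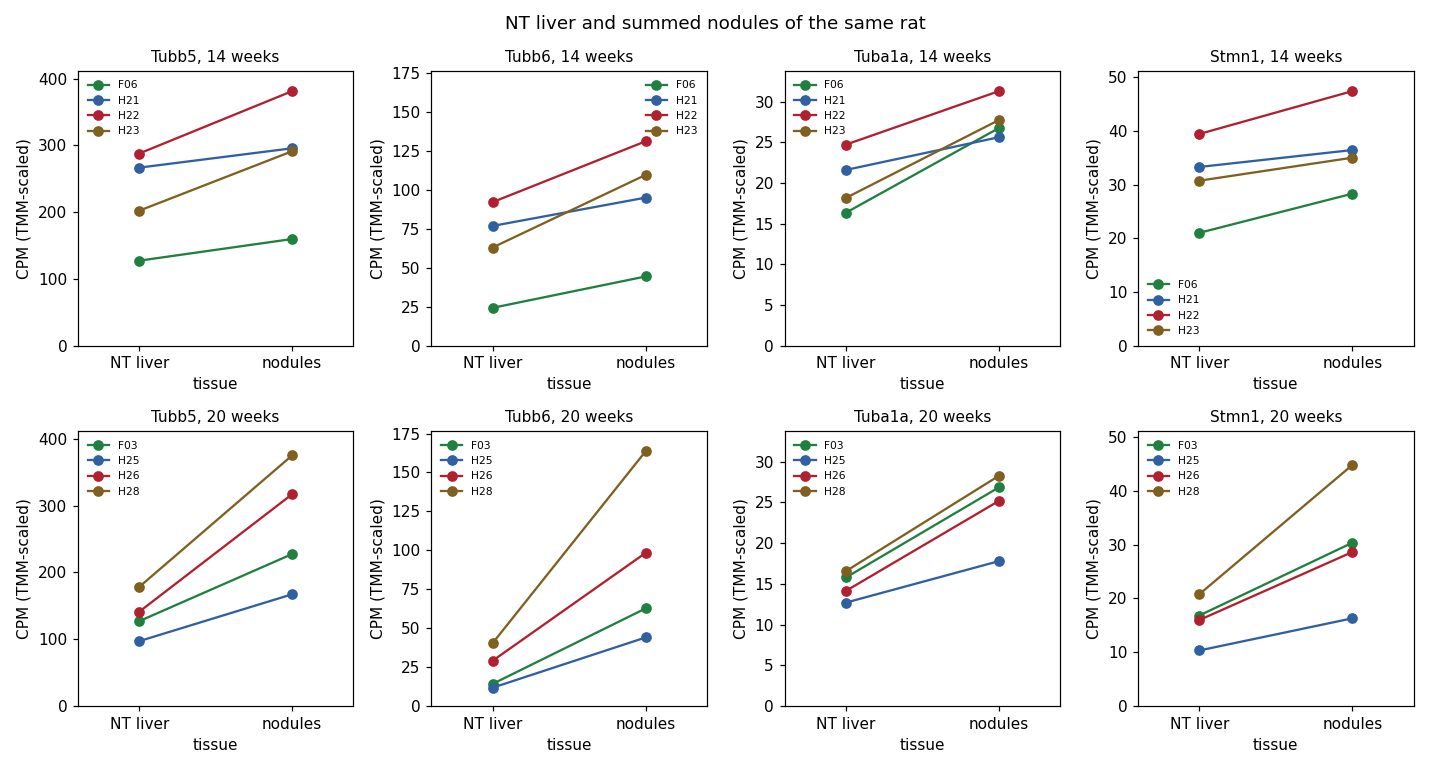
TMM-scaled CPM (y axis, from 0) of Tubb5, Tubb6, Tuba1a and Stmn1 in NT liver and in the summed nodules (x axis) at 14 weeks (top) and 20 weeks (bottom); each line joins the values of 1 rat. All 32 lines of these chosen members rise from NT liver to nodules, and those of Tubb6 at 20 weeks rise by 3.39- to 4.43-fold. Of the members not drawn, Tubb2a and Tuba1c did not rise in every rat at either week, nor did Tubb2b at 14 weeks. How many of all genes rose in every rat was not counted.

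The 2 nodules of a rat usually held similar levels. The higher nodule exceeded the lower by 1.01- to 1.74-fold for Tubb6 in 7 of 8 rats. In rat H25 at 20 weeks the nodules held 77.5 and 23 CPM, a 3.38-fold difference, and the same 2 nodules differed by 1.74-fold for Tubb5, 1.70-fold for Stmn1 and 1.69-fold for Tuba1b, with proliferation sums of 69.9 and 33.4 CPM, cholangiocyte and ductular sums of 105 and 49.2 CPM and hepatocyte sums of 198475 and 249885 CPM; their part in the difference was not tested. Tubb2a varied least within rats, by 1.00- to 1.25-fold. Tuba1c varied most, with 0.303 and 2.19 CPM in the nodules of rat F06 (7.21-fold) and 1.41 and 5.81 CPM in those of rat F03 (4.11-fold), while the other 6 rats stayed between 1.01- and 1.45-fold. Both low nodules were libraries at the end of a range: that of rat F06 was the smallest, with 20528515 assigned pairs, and had the most pairs outside exons (34.5%, median of all libraries 23.9%), and that of rat F03 had the most pairs at several places (16.3%, median 10.5%). The part of these properties in the Tuba1c values was not tested.

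DEN had been stopped for 6 weeks in the 20-week rats, and the next comparison describes the change of the DEN difference in NT liver from 14 to 20 weeks. It is built from the levels on which the members were chosen, so nothing is read from the tests of the members. The change was negative for all 10 members. How many of all genes had a negative change was not counted, and their median change in log2 was 0.003. The change in log2 fold change was -1.89 for Tubb6 (SE 0.72), -1.09 for Stmn1 (SE 0.31), -0.79 for Tubb5 (SE 0.30), -0.60 for Tuba1b (SE 0.23) and -0.39 for Tubb4b (SE 0.18). For Tubb2a it was -0.03 (SE 0.18), and its sign changed when some rats were left out. As Tubb2a was lower after DEN at both times, a negative change there means a wider difference. For Tubb3, Tuba1c, Tubb2b and Tuba1a the change was -1.30 (SE 0.79), -0.56 (SE 0.28), -0.51 (SE 0.52) and -0.31 (SE 0.21). By edgeR's quasi-likelihood test no member was called at an adjusted p of 0.05, beside 0.738% of all genes. The 5 named first had an unadjusted p under 0.05, as did 1912 of 11245 genes, and DESeq2 called Stmn1 beside 386 genes. Without rat F06, Tubb5, Tubb4b, Tuba1b and Stmn1 were called beside 386 of 11320 genes, against 83 of 11245 with it. Without both F06 and F03, the rats numbered F, no member was called beside 182 of 11295 genes. These counts are again given as a description. In nodules the change from 14 to 20 weeks lay between -1.12 and -0.04, no member was called by edgeR, beside 0.0862% of all genes, or by DESeq2, beside 29 of 11607 genes, and 0 members and 378 genes had an unadjusted p under 0.05.

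In untreated rats the members changed little with age. From 8 to 14 weeks the log2 fold changes of 9 members tested lay between -0.93 (Tubb2b, SE 0.39) and 0.11. No gene was called by edgeR (0% of 10486, with 1038 genes at an unadjusted p under 0.05), Tubb2b was the single member with an unadjusted p under 0.05, and DESeq2 called no member beside 32 genes. From 14 to 20 weeks the values of 8 members tested lay between -0.15 and 0.46, again with 0% of 10432 genes called, 670 genes and 0 members at an unadjusted p under 0.05, and no member called by DESeq2 beside 40 genes. Tubb2b held 3 to 20 read pairs per No DEN library, so that its value is imprecise.

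The remaining tubulins and the proteins that fold, modify or bind tubulin were taken from 4 lists. Of 12 other tubulins and gamma-tubulin ring genes tested in nodules, 2 rose and 1 fell at each week by edgeR, beside 39.1% and 38.8% of all genes called. Tubb4a, the brain-enriched class IVa beta-tubulin, had log2 fold changes of 4.73 (SE 0.49) in nodules at 14 weeks and 4.36 (SE 0.43) at 20 weeks, and of 3.86 (SE 0.62) and 2.30 (SE 0.38) in NT liver at 14 and 20 weeks. It held 1 to 5 read pairs per No DEN library and 97 to 321 per rat in nodules, and so passed the filter through the DEN samples. Its means were 2.48 and 2.54 CPM in nodules against 1.32 and 0.586 CPM in NT liver, and with the rat as a block it was higher in nodules at 20 weeks by 2.11 (SE 0.20). Tube1, the epsilon-tubulin of centrioles, rose by 0.90 (SE 0.20) and 0.72 (SE 0.17) in nodules, and Tuba3a fell by 1.60 (SE 0.47) and 1.92 (SE 0.35). In No DEN liver Tuba3a averaged 0.504, 1.16 and 2.11 CPM at 8, 14 and 20 weeks. At 14 weeks it held 12 to 58 read pairs per rat in nodules and 22 to 45 per No DEN library, and passed the filter through No DEN liver.

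The folding and supply genes, which include the chaperonin subunits, prefoldins and tubulin cofactors, came next. Of 19 tested, edgeR called 0 in NT liver at 8 weeks and at 20 weeks, beside 7.91% and 5.22% of all genes, and 1 at 14 weeks, beside 15.2%, which was Tbcel with a log2 fold change of 1.65 (SE 0.26). In nodules 1 fell at 14 weeks, the cofactor Tbcd by 0.52 (SE 0.12), and 2 rose at 20 weeks, Tbcel by 1.44 (SE 0.30) and Tbce by 0.51 (SE 0.11), beside 39.1% and 38.8% of all genes called. The median of this list was between 0.00 and 0.15 in the 5 comparisons with No DEN liver, beside -0.01 to 0.02 for all genes.

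Of 9 tubulin-modifying enzymes tested, 4 rose in nodules at 14 weeks and 5 at 20 weeks, beside 23.9% and 23.6% of all genes called higher. Agtpbp1, a carboxypeptidase that shortens glutamate side chains on tubulin, rose, with log2 fold changes of 2.95 (SE 0.24) and 2.79 (SE 0.31) in nodules and of 2.51 (SE 0.40) in NT liver at 14 weeks. Its level was 2.80, 2.98 and 3.25 CPM in No DEN liver, 5.31, 16.6 and 8.07 in NT liver of DEN rats, and 23.4 and 23 in nodules. The glycylase Ttll3 rose by 1.46 (SE 0.29) and 1.36 (SE 0.27) in nodules, and Svbp, the partner of the vasohibin detyrosinases, by 0.72 (SE 0.19) and 0.78 (SE 0.27). With the rat as a block, Agtpbp1 and Ttll3 were higher in nodules than in NT liver at 20 weeks, by 1.48 (SE 0.08) and 0.51 (SE 0.17).

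Among microtubule-binding, severing and destabilising proteins, NT liver at 8 weeks had 2 risen genes of 28 tested by edgeR, NT liver at 14 weeks 6 of 29 and NT liver at 20 weeks 3 of 29, beside 7.29%, 13.1% and 4.89% of all genes called higher, and none fell. In nodules 8 of 29 rose and 2 fell at 14 weeks, and 11 of 30 rose and 3 fell at 20 weeks, beside 23.9% and 23.6% of all genes called higher, so that the share at 14 weeks was close to that of all genes. The risen genes included the microtubule-associated proteins Map1b, at 3.60 (SE 0.33) in NT liver at 14 weeks and 3.91 (SE 0.36) and 3.52 (SE 0.41) in nodules, Map2, at 3.57 (SE 0.66) in NT liver at 14 weeks and 3.57 (SE 0.48) in nodules at 20 weeks, and Map1a, at 4.20 (SE 1.09) in nodules at 14 weeks. Map1a and Map2 held at most 5 read pairs in any No DEN library and passed the filter through the DEN libraries, so that they had to differ and their fold changes depend on the count that the fit adds to 0. Dclk1, a kinase with microtubule-binding doublecortin domains, rose by 1.44 (SE 0.21) in NT liver at 8 weeks and by 2.59 (SE 0.38) and 3.11 (SE 0.33) in nodules. Fignl1, of the fidgetin family and also known from DNA repair, rose by 1.59 (SE 0.31) in NT liver at 8 weeks and 2.13 (SE 0.29) at 14 weeks. It held 3 to 12 and 8 to 10 read pairs per No DEN library at these weeks, and so passed the filter through the DEN libraries. The same holds for Map1b at 14 weeks (7 to 13 pairs) and for Dclk1 in the nodule comparisons at 14 and 20 weeks (4 to 27 and 6 to 10 pairs). The counts of risen genes above include such genes. The severing enzyme Fign fell by 1.04 (SE 0.17) and 1.26 (SE 0.25) in nodules, Map7d1 by 0.79 (SE 0.11) and 0.78 (SE 0.15), and Stmn3, a stathmin relative, by 1.83 (SE 0.43) at 20 weeks. Stmn3 held 8 to 28 read pairs per rat in these nodules and 10 to 33 per No DEN library, and passed the filter through No DEN liver. With the rat as a block, 6 of 30 were higher and 2 lower in nodules than in NT liver at 20 weeks, beside 9.21% of all genes called higher, Map1a by 2.31 (SE 0.32) and Map2 by 1.31 (SE 0.19) among the higher. Map1a held 2 to 32 read pairs in these NT livers and passed the filter through the nodules, so that its call carries no weight. No gene of these 4 lists was called between nodules and NT liver without the block.

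The genes whose level followed Tubb6 most closely over the 40 libraries were looked up among 10153 genes of at least 1 CPM on average, by the root mean square difference of log2 CPM after centring each gene on its mean in the 12 No DEN libraries. Among the 5 smallest differences were those of Akr7a3 (0.640), Mmd (0.650), Ddit4l2 (0.678) and Bex1 (0.720). Akr7a3 encodes an aldo-keto reductase that detoxifies aflatoxin aldehyde. For Stmn1 they were Xkr5 (0.220), Spc25 (0.227), Sgol2 (0.247), Dynlt1 (0.250) and Ttk (0.256). Spc25, Sgol2 and Ttk act at the kinetochore or centromere in cell division. No other tubulin was among either set of 5, and the libraries share rats, treatment and depth, so that these values describe likeness and no more.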

How the data were processed

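Total RNA of rat liver was sequenced by the authors as stranded mRNA libraries in 75 bp paired-end reads. Per the labels and the study's methods, reads were aligned to rn6 with STAR 2.7.1a and the authors deposited raw HTSeq counts of read pairs per gene, made with reverse strand and without pairs that map to several places. The 5 summary lines of each file, 32.8% to 45.4% of pairs, were left out. The 10 members and all gene lists were chosen with earlier results of these data known, so that calls of the members are a description, given without p-values.

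Counts of both nodules of a rat were summed. Genes were kept by edgeR's filterByExpr, scaled by TMM and tested with edgeR 4.0.16 (quasi-likelihood, robust) in R 4.3.3, each comparison with its own groups, and p-values were adjusted by Benjamini-Hochberg over all genes tested. CPM per rat use TMM factors over the summed nodules and NT livers, and CPM of single nodules those over the 40 libraries, which differ slightly. NT liver and nodules share rats by their labels, and deviations from the group means correlated within every rat (r from 0.368 to 0.545), so fits with the rat as a block are given beside the unblocked ones. The closest pair of libraries in a group differed by a chi-square of 12.9 per degree of freedom, so none was counted as a duplicate. Rats are separate animals.

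The rule named all 10 members in each comparison. Where nothing was called between nodules and NT liver, for the change in nodules and with age, the text gives some members and a range. From each related list, up to 3 risen and 3 fallen genes past the threshold were named per comparison. Marker lists served for summed CPM. Levels for the likeness search were log2 of CPM plus 0.5, and 1 gene it found is not reported here. Alternatives were DESeq2 1.42.0, RLE scaling, no filter, a fit over all 8 groups, single nodules, no rats numbered F, the rat as a block, and leaving out each rat. Genes of the lists that had no row in the files were not analysed here.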

Additional observations from a re-analysis of the deposited data

Results flagged for a closer look

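Among 80 groups of 4 rats, 10 members in 8 groups, 3 held a rat far from the other 3 by Dixon's test, and chance flags about 1 in 20, or 4. Tubb4b in NT liver at 14 weeks was low in rat F06, at 172 CPM against 263 to 277 in the other 3 rats, and the gap made up 0.861 of the group's range. Tuba1c in nodules at 14 weeks was low in the same rat, at 1.30 CPM against 7.90 to 8.76, with a gap of 0.884 of the range. Tubb3 in No DEN liver at 14 weeks was at 0 in rat H12 against 0.120 to 0.142 CPM in the other 3, with a gap of 0.843, and this corresponds to 0 against 3 or 4 read pairs. The proliferation genes of rat F06 were also the lowest, and its macrophage markers the highest, among the DEN-treated rats of that week, and their part in its Tubb4b and Tuba1c levels was not tested.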

How the results depend on the processing

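Of 1165 alternative values for 79 results on single members, 1099 kept their sign and their side of the threshold or moved by less than the spread between rats. Another 49 newly passed the threshold (in nodules against NT liver and in the change in NT liver), 3 moved further and the remaining values changed sign. Among the values counted as moving, within the spread or further, 8 changed sign as well. Against No DEN liver, whose values are counted there by size and not by call, 21 calls were lost (7 of Tubb4b, 4 of Tubb2a, 2 of Tubb2b and 1 of Tubb3 in nodules at 20 weeks, 6 of Tubb6 in NT liver at 20 weeks and 1 of Tuba1a at 14 weeks) and 8 gained (3 of Stmn1, 2 of Tuba1c, 2 of Tubb3 and 1 of Tubb2b). The number of members called changed by more than 1.5 times, or from or to 0, in 4 comparisons, and the cause was not tested. Elsewhere it ranged from 3 to 4 in NT liver at 8 weeks (648 to 1004 genes called in all), from 5 to 7 at 14 weeks (1533 to 1786 genes), and in nodules against No DEN liver from 8 to 9 at 14 weeks (3943 to 4924 genes) and from 7 to 9 at 20 weeks (3843 to 4671 genes). For NT liver against No DEN liver at 20 weeks, with 1 member of 565 genes called, DESeq2 called 2 of 740, a fit over all 8 groups 2 of 768 and no filter 0 of 591, and leaving out each rat gave 0 to 2, of 250 to 649 genes. For nodules against NT liver at 20 weeks, with 0 members and 0 genes called, DESeq2 called 5 of 881 genes, a fit over all 8 groups 6 of 1096, the rat as a block 6 of 1693 and nodule 1 alone 4 of 218, whereas nodule 2 alone called no gene. Leaving out each rat gave 0 to 4, with 4 of 445 genes without rat H25 and no gene without each other rat. With the block, a setting added after seeing the data, 5 of 1488 genes were called without rat F03, 7 of 2078 without H25 and 5 of 1070 without H26, and that fit was not run without H28. At 14 weeks the settings run gave 0, the block included, except for 1 of 300 genes with the block and without rat F06, the one rat left out under the block at that week. For the change in NT liver from 14 to 20 weeks, with 0 members of 83 genes called, DESeq2 called 1 of 386, and leaving out each rat gave 0 to 4, with 4 of 386 without rat F06 and 1 of 234 without rat H28. The block changed no other call of a member.

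The sign changes concerned values near 0. For Tuba1c in nodules against NT liver at 14 weeks (-0.02 in log2), the value was 0.0058 over all 8 groups, 0.17 without the rats numbered F, 0.17 with the block and without rat F06, and 0.16 with nodule 1 alone, and leaving out each rat gave -0.12 to 0.17. At 20 weeks Tuba1c (0.12) was -0.26 with nodule 1 alone and -0.0013 to 0.26 leaving out each rat. Against No DEN liver, Tuba1c at 8 weeks in NT liver (-0.13) was 0.23 without the rats numbered F and 0.0056 without rat F10, Tuba1c in nodules at 20 weeks (-0.09) was 0.18 with nodule 2 alone and 0.045 without rat F03, and Tubb4b in NT liver at 20 weeks (0.03) fell to -0.086 without rat H28. For Tubb2a leaving out each rat gave -0.0028 to 0.041 in nodules against NT liver at 14 weeks and -0.18 to 0.075 for the change in NT liver.

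With 4 rats a group and at most 6 Tubb3 read pairs in a No DEN library, small differences of Tubb3 and Tubb2b could not be detected. No length correction was possible, and read pairs shared by similar tubulin copies are missing from all values.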
